A study of Mus musculus with 10 samples.

Results

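The 46 genes described here encode neuropeptides, the granins that are stored with them, and neuropeptide receptors. They were chosen by name from the 24421 gene symbols measured, as 24 peptide ligands and granins and 22 receptors, and all 46 were in the table. RNA from the ventral hippocampus (vHpc) of ovariectomized (OVX) female C57BL/6 mice was sequenced in 10 libraries, each from RNA pooled from 2 animals. The mice were wild type (WT) or carried 1 Met allele of the brain-derived neurotrophic factor gene (Het-Met, a knock-in line). They were ovariectomized at 70 to 80 days of age, and after 2 weeks of recovery drank either 0.1% ethanol (vehicle) or 300 nM estradiol (E2) in 0.1% ethanol, about 0.7 µg of E2 per day, for 6 weeks. The groups were vehicle-treated WT (2 libraries, replicates 1 and 3), E2-treated WT (2 libraries), vehicle-treated Het-Met (3 libraries) and E2-treated Het-Met (3 libraries). All mice lacked ovaries, so vehicle here means low ovarian hormone and not an intact cycle.

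Neuropeptides are cut from larger precursor proteins, packed with granins in dense-core vesicles, and released to act mostly on G protein-coupled receptors. In the hippocampus many of them mark classes of GABAergic interneurons, such as the somatostatin, neuropeptide Y, vasoactive intestinal peptide and cholecystokinin cells, while others, such as oxytocin, vasopressin, orexin and melanin-concentrating hormone, are made in the hypothalamus and reach the hippocampus in axons. The receptors are spread over pyramidal cells, interneurons and glia, so that a peptide and its receptor are often made by different cells.

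Values are read counts scaled to 1000000 reads on genes per library (CPM). Between 19820184 and 23267410 reads per library lay on genes, so that 1 read was worth 0.0430 to 0.0505 CPM, and 3 reads, the limit that a count of 0 allows, 0.129 to 0.151 CPM. Markers of hippocampal neurons were present: the summed level of 6 pyramidal neuron genes was 870 to 980 CPM, and all 5 dentate granule cell genes were detected, with a sum of 178 to 308 CPM. These lists were not chosen to tell the ventral part from the rest of the hippocampus, so that part of the label was not tested. Markers of neighbouring tissue were present in unequal amounts. The sum of 10 choroid plexus markers was 148 and 1068 CPM in vehicle-treated WT, 2468 and 1882 in E2-treated WT, 3247, 1450 and 1914 in vehicle-treated Het-Met and 1532, 429 and 257 in E2-treated Het-Met libraries (all given in replicate order), and that of 9 pituitary markers ran from 1.57 to 201 CPM. In such bulk samples, fewer cells of a type and less RNA per cell cannot be told apart.

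Of the 46 members, 41 averaged 0.5 CPM or more over the 10 libraries and entered the tests, 20 ligands or granins and 21 receptors. Levels were compared between genes per kilobase of exon, counting all annotated exons of a gene together. Ranks and ratios between genes depend on this length. Sst, which encodes somatostatin, the inhibitory peptide of dendrite-targeting interneurons, was highest at 406 CPM per kb. Its level before division by length was 304 and 263 CPM in vehicle-treated WT, 304 and 313 in E2-treated WT, 319, 312 and 246 in vehicle-treated Het-Met and 303, 301 and 262 in E2-treated Het-Met libraries. Chgb, a granin of the dense-core vesicle, followed at 277 CPM per kb. It measured 728 and 775 CPM in vehicle-treated WT, 712 and 709 in E2-treated WT, 755, 722 and 824 in vehicle-treated Het-Met and 789, 861 and 728 in E2-treated Het-Met libraries. Cck, the cholecystokinin precursor, used by basket cells and also made in pyramidal cells, came next at 200 CPM per kb. Neuropeptide Y (Npy, 102 CPM per kb) and the granins Scg2 (99.6) and Chga (71.0) followed, and Chga, the lowest of these 6, still stood above 96.6% of the 14535 tested genes that had an exon length. Npy measured 62.8 and 49.7 CPM in vehicle-treated WT, 63.3 and 55.9 in E2-treated WT, 63.0, 55.4 and 52.4 in vehicle-treated Het-Met and 57.0, 59.1 and 57.9 in E2-treated Het-Met libraries, so that the groups overlapped.

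**Figure D1:**
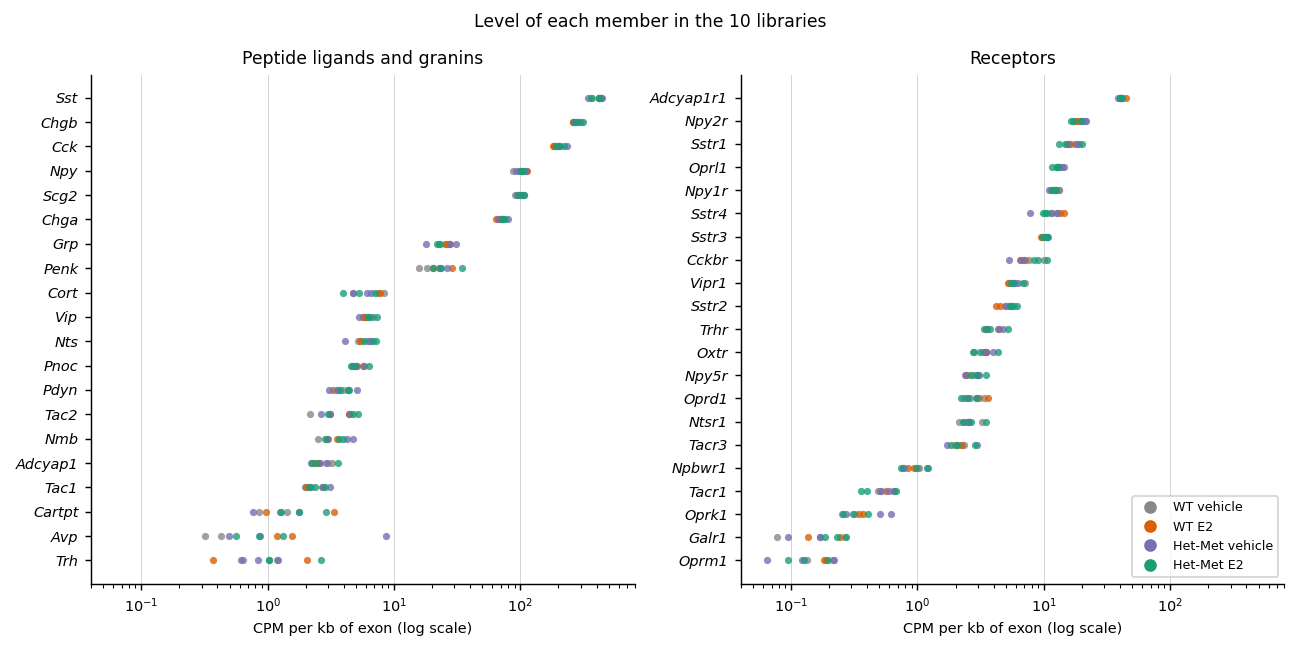
Level of the 41 members tested, in CPM per kb of exon on a log axis, with 1 point per library coloured by group, peptide ligands and granins on the left and receptors on the right. Somatostatin leads at a mean of 406 CPM per kb, the highest receptor, Adcyap1r1, lies at 40.8, and the points of the groups overlie each other for most genes.

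The receptors were lower. Adcyap1r1, the receptor for the pituitary adenylate cyclase-activating peptide, led at 40.8 CPM per kb, with 263 and 269 CPM in vehicle-treated WT, 293 and 266 in E2-treated WT, 255, 274 and 272 in vehicle-treated Het-Met and 268, 266 and 270 in E2-treated Het-Met libraries. The highest of the 10 libraries was 1.15 times the lowest. Npy2r, a presynaptic receptor for neuropeptide Y, lay at 19.1 and the somatostatin receptor Sstr1 at 16.6 CPM per kb. Sstr1 measured 32.7 and 33.1 CPM in vehicle-treated WT, 31.5 and 35.8 in E2-treated WT, 38.8, 37.4 and 31.2 in vehicle-treated Het-Met and 26.9, 30.1 and 41.4 in E2-treated Het-Met libraries, with ranges that overlapped between groups in every comparison. At the other end were the kappa, galanin and mu receptors Oprk1 (0.365 CPM per kb), Galr1 (0.184) and Oprm1 (0.154). The joined exons of Oprk1 and Oprm1 are long, at 9.15 and 8.04 kb, which lowers their values per kb.

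In 25 ligand and receptor pairs, 22 of them with both genes tested, the ligand was the higher per kb in 18. The pairs are not independent, since Sst, Cort, Npy and Penk each enter several. Some were near ties, such as Vip, which exceeded Vipr1 1.04 times. Adcyap1r1 exceeded Adcyap1 15.0 times, the thyrotropin-releasing hormone receptor Trhr exceeded Trh 3.44 times, the nociceptin receptor Oprl1 exceeded Pnoc 2.52 times, and Sstr1, Sstr3 and Sstr4 exceeded Cort, an interneuron peptide that binds the same receptors, 1.65 to 2.67 times. The remaining exception was the oxytocin receptor Oxtr, which had 13.3 to 20.9 CPM while Oxt was close to 0. All 4 somatostatin receptors lay below Sst itself, by 24.5 to 77.5 times, and Cckbr lay 25.7 times below Cck.

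The members not described one by one further on were spread over the range between. Of the peptides, Grp (gastrin-releasing peptide) measured 26.7 to 45.4 CPM over the 10 libraries, Vip (vasoactive intestinal peptide) 18.1 to 25, Pnoc (the nociceptin precursor) 9.93 to 13.6, Tac1 (the substance P precursor) 6.71 to 10.5 and Nts (neurotensin) 5.10 to 8.96 CPM. Adcyap1 measured 8.39 to 13.6, Tac2 (the neurokinin B precursor) 2.97 to 7.10 and Cort 2.66 to 5.60 CPM. Of the receptors, Oprl1 measured 43.6 to 54.4, Sstr3 41.4 to 46.8, Npy1r 38.0 to 45.8 and Npy5r 6.10 to 8.85 CPM, the last 2 being neuropeptide Y receptors. Trhr lay at 13.5 to 20.8, the neurotensin receptor Ntsr1 at 8.28 to 13.6, the tachykinin receptors Tacr3 and Tacr1 at 6.40 to 11.1 and 2.30 to 4.36, Npbwr1, a receptor for neuropeptides B and W, at 2.72 to 4.46, the mu opioid receptor Oprm1 at 0.522 to 1.77 and Galr1 at 0.231 to 0.806 CPM. For none of these 19 genes was the unadjusted limma p under 0.05 in any comparison. Reads of Penk and Oprm1 could be shared with a gene on the opposite strand whose exons overlap theirs, if strand was not used in counting, which is not stated.

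A feature of these genes that the choice did not use is the cAMP response element, TGACGTCA, the classical site of the cAMP-regulated activator first described at the somatostatin gene. RefSeq (GRCm38.p6) start sites were available for 38 of the 46 members, with 45 promoters, of which the 250 bases upstream were searched on both strands. The element was in 5 of the 45 (11.1%), against 1.55% of 32851 mouse promoters of the same length. The 5 windows below are shown, 5′ to 3′ on the gene's strand and with the element in capitals, because they join 3 of the 6 most abundant genes per kb, Sst, Chgb and Scg2, with Sstr2 and Cartpt. They lie at chr16:23890874-23890903 (Sst, minus strand), chr2:132781559-132781588 (Chgb, plus), chr1:79440076-79440105 (Scg2, minus), chr11:113619258-113619287 (Sstr2, plus) and chr13:99900777-99900806 (Cartpt, minus), upstream of the RefSeq start in each case. All except that of Sstr2 also overlap an exon of the same gene in the GENCODE annotation, where that gene starts further upstream.
Sst: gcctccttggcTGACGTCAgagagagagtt
Chgb: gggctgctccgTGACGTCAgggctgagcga
Scg2: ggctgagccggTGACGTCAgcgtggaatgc
Sstr2: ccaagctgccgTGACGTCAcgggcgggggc
Cartpt: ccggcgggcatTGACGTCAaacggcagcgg

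The estrogen response element, GGTCA and TGACC with any 3 bases between them, was in none of the 45 member promoters and in 0.0639% of all promoters. A single arm of it, AGGTCA on either strand, was in 3 (6.67%), those of Oxt, Oxtr and Trh, and in 14.0% of all promoters. These are matches of letters in a short window and do not show binding.

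E2 add-back was first compared with vehicle in OVX WT mice. A call required an adjusted p (Benjamini-Hochberg, over all 15081 genes fitted with limma) under 0.05 together with a fold change above 1.3, and fold changes are differences of log2(CPM + 0.5), which understates the change of low genes. No member was called (0 of 41, with 0.0133% of all genes called). At an unadjusted p under 0.05 there were 3 members (7.32%), against 4.04% of all genes. The median change of the 41 members was 0.07 on the log2 scale, beside -0.00 for all genes, and 0.0073 without E2-treated WT replicate 1. The 2 groups of 2 libraries did not overlap for 6 members that were higher under E2 (14.6%, beside 15.6% of all genes), and for 10 that were lower (24.4%, beside 16.2%). The 6 were Penk, Avp, Sstr4, Tacr1, Oprk1 and Oxtr, and the 10 were Cck, Adcyap1, Chga, Chgb, Sstr2, Npy1r, Cckbr, Vipr1, Tacr3 and Npbwr1.

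Among the ligands, Penk, the precursor of the opioid enkephalins, was 29.8 and 25.8 CPM in vehicle-treated and 46.8 and 33.3 CPM in E2-treated WT libraries. Both E2-treated libraries were above both controls. The fitted log2 difference was 0.50 (95% interval 0.08 to 0.92, limma adjusted p = 0.9999), and it was 0.26 without E2-treated WT replicate 1 and 0.87 with the mean log2 level of the 10 choroid plexus markers as a covariate. Sst and Npy differed by 0.13 (95% interval -0.12 to 0.37) and 0.09 (-0.15 to 0.33), both within the spread of the libraries. The 10 ligands grouped by name as interneuron peptides were Sst, Npy, Vip, Cck, Penk, Pdyn, Tac1, Tac2, Cort and Pnoc. The cells that made them were not tested. Under E2 in WT mice 7 were fitted higher and 3 lower, with a median of 0.13, beside 7388 of all 15081 genes fitted higher. In Het-Met mice 6 were fitted higher, with a median of 0.03, beside 7806 of all genes. The 3 granins had medians of -0.08 in WT and 0.05 in Het-Met mice.

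Among the receptors, Vipr1, a receptor for vasoactive intestinal peptide, was 41.1 and 33.6 CPM under vehicle and 30.6 and 30.3 CPM under E2 in WT mice, with no overlap. The log2 difference was -0.28 (95% interval -0.54 to -0.03, limma adjusted p = 0.9999), and -0.14 without vehicle-treated WT replicate 1 and -0.43 without replicate 3. In Het-Met mice Vipr1 was 31.9, 34.3 and 36.1 CPM under vehicle and 39.7, 31.7 and 33.2 under E2, and the ranges overlapped. Cckbr, the brain receptor for cholecystokinin, was also lower under E2 in WT and is described with the interaction.

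**Figure D2:**
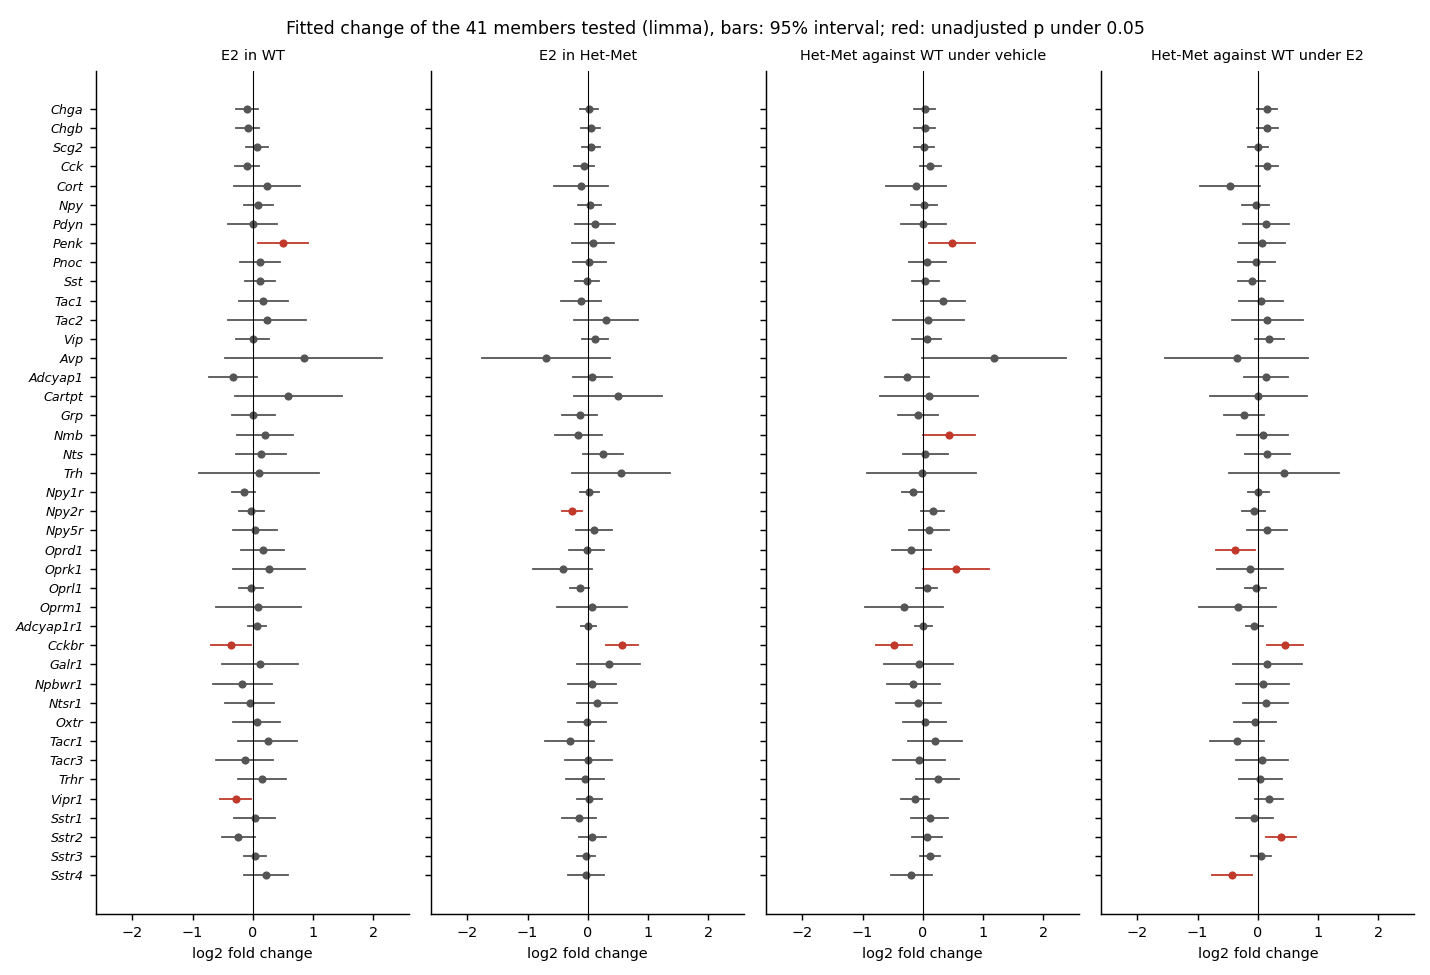
Fitted log2 fold changes of the 41 members tested, with 95% intervals from limma, for E2 in WT, E2 in Het-Met, Het-Met against WT under vehicle and Het-Met against WT under E2. Red marks an unadjusted p under 0.05 (3, 2, 4 and 4 members), none of which passed the adjusted threshold, and Cckbr is the one member in red in all 4 comparisons.

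The same question was asked in OVX Het-Met mice. No member was called (0 of 41, beside 0% of all genes), 2 had an unadjusted p under 0.05 (4.88%, beside 5.45% of all genes), and the median change was 0.02, beside 0.00 for all genes. The ranges of 3 against 3 libraries did not overlap for 2 members that were higher under E2, Cckbr and Galr1 (4.88%, beside 5.15% of all genes), and for 1 that was lower, Npy2r (2.44%, beside 5.11%). Npy2r was 73.4, 68.2 and 72.1 CPM in vehicle-treated and 57.4, 66.5 and 55.3 CPM in E2-treated Het-Met libraries. The log2 difference was -0.26 (95% interval -0.42 to -0.09, limma adjusted p = 0.742). In WT mice the 4 libraries of Npy2r, 59.9 and 67.6 CPM under vehicle and 61.2 and 64.1 under E2, overlapped, and the difference of the 2 effects was -0.23 (95% interval -0.50 to 0.03, limma adjusted p = 0.973). Averaged over the genotypes, the effect of E2 on Npy2r was -0.14 and on Penk 0.29 (limma adjusted p = 0.999 for both), and that on Penk was 0.17 without E2-treated WT replicate 1 and 0.18 without E2-treated Het-Met replicate 3. These were the only 2 of 41 members with an unadjusted p under 0.05 in that average (4.88%, beside 3.22% of all genes), and none was called (0.00663% of all genes were); the members' median was 0.05, beside 0.00.

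Het-Met and WT mice were then compared under vehicle. The 4 pairwise comparisons share their groups, so that each library enters 2 of them. No member was called (0.00663% of all genes were), 4 had an unadjusted p under 0.05 (9.76%, beside 10.7% of all genes), and the median difference was 0.03, beside 0.02. The ranges did not overlap for 7 members higher in Het-Met (17.1%, beside 14.8% of all genes) and for 3 that were lower (7.32%, beside 9.89%). The 7 were Penk, Tac1, Nmb, Avp, Sstr3, Npy2r and Tacr1, and the 3 were Adcyap1, Npy1r and Cckbr. Penk was 37.6, 36.9 and 43.0 CPM in vehicle-treated Het-Met libraries, all above the 2 WT libraries given above. The difference was 0.49 (95% interval 0.10 to 0.87, limma adjusted p = 0.411), and 0.79 with the choroid plexus level as a covariate. Nmb, which encodes neuromedin B, a peptide of the bombesin family, was 2.36 and 1.98 CPM in WT and 3.75, 2.37 and 3.34 CPM in Het-Met libraries. The nearest libraries of the 2 groups, at 2.36 and 2.37 CPM, lay less than 1 read apart, and the log2 difference was 0.44 (95% interval 0.01 to 0.87, limma adjusted p = 0.459). An exon of Nmb overlaps Sec11a on the same strand, so reads of the 2 genes could be shared.

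Oprk1, the kappa opioid receptor, was 2.31 and 2.92 CPM in vehicle-treated WT and 5.69, 4.59 and 2.50 CPM in vehicle-treated Het-Met libraries. Replicate 3 of the Het-Met group lay between the WT libraries, so the groups overlapped. The log2 difference was 0.55 (95% interval 0.01 to 1.10, limma adjusted p = 0.459), 0.33 without Het-Met replicate 1 and 0.86 without Het-Met replicate 3. Its ligand gene Pdyn, the dynorphin precursor, was 11.5 and 10.4 CPM in WT and 10.2, 8.88 and 14.7 CPM in Het-Met libraries, a difference of 0.01 (95% interval -0.37 to 0.39).

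Het-Met and WT mice were also compared under E2. No member was called (0.0265% of all genes were), and the 4 members with an unadjusted p under 0.05 (9.76%, beside 11.7% of all genes) were the receptors Sstr2, Sstr4, Cckbr and Oprd1. The median difference was 0.05, beside 0.03 for all genes. The groups did not overlap for 7 members higher in Het-Met, Vip, Cck, Chga, Chgb, Sstr2, Cckbr and Vipr1 (17.1%, beside 21.1% of all genes), and for 5 lower, Sst, Cort, Grp, Sstr4 and Oprd1 (12.2%, beside 14.7%). Sstr2, a somatostatin receptor found on many principal cells, was 8.97 and 9.58 CPM in E2-treated WT and 12.1, 11.6 and 13.2 CPM in E2-treated Het-Met libraries. The difference was 0.38 (95% interval 0.14 to 0.63, limma adjusted p = 0.334). Under vehicle, at 11.5 and 10.6 CPM in WT and 10.8, 12.4 and 11.6 CPM in Het-Met, the ranges of Sstr2 overlapped.

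Sstr4, another somatostatin receptor, lay the other way. It was 19.2 and 20.6 CPM in E2-treated WT and 15.1, 14.6 and 14.1 CPM in E2-treated Het-Met libraries, a difference of -0.44 (95% interval -0.77 to -0.10, limma adjusted p = 0.354). Under vehicle the values were 16.1 and 18.1 CPM in WT and 11.1, 16.5 and 18.1 CPM in Het-Met, and they overlapped. Sstr4 lies on chromosome 2 of GRCm38, at chr2:148395344-148396767, 38.7 Mb from Bdnf, the locus that carries the Met allele, and Pdyn, Oxt, Avp, Chgb, Ntsr1 and Oprl1 lie on the same chromosome at up to 72.0 Mb from it. Whether DNA that came with the Met allele reaches any of them was not tested. Oprd1, the delta opioid receptor to which enkephalins bind, was 12.2 and 14.6 CPM in E2-treated WT and 11.7, 10.1 and 8.92 CPM in E2-treated Het-Met libraries, with no overlap. The difference was -0.38 (95% interval -0.70 to -0.05, limma adjusted p = 0.381), and -0.16 with the choroid plexus level as a covariate. Under vehicle Oprd1 was 10.4 and 13.4 CPM in WT and 9.35, 11.8 and 9.83 CPM in Het-Met libraries, which overlapped. All 4 opioid receptors, Oprk1, Oprm1, Oprd1 and Oprl1, were fitted lower in Het-Met than in WT mice under E2, beside 6445 of all 15081 genes. Their differences ran from -0.38 to -0.04, with a median of -0.23, and only that of Oprd1 had an unadjusted limma p under 0.05. Under vehicle 2 of the 4 were fitted lower, beside 6748 of all genes.

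**Figure D3:**
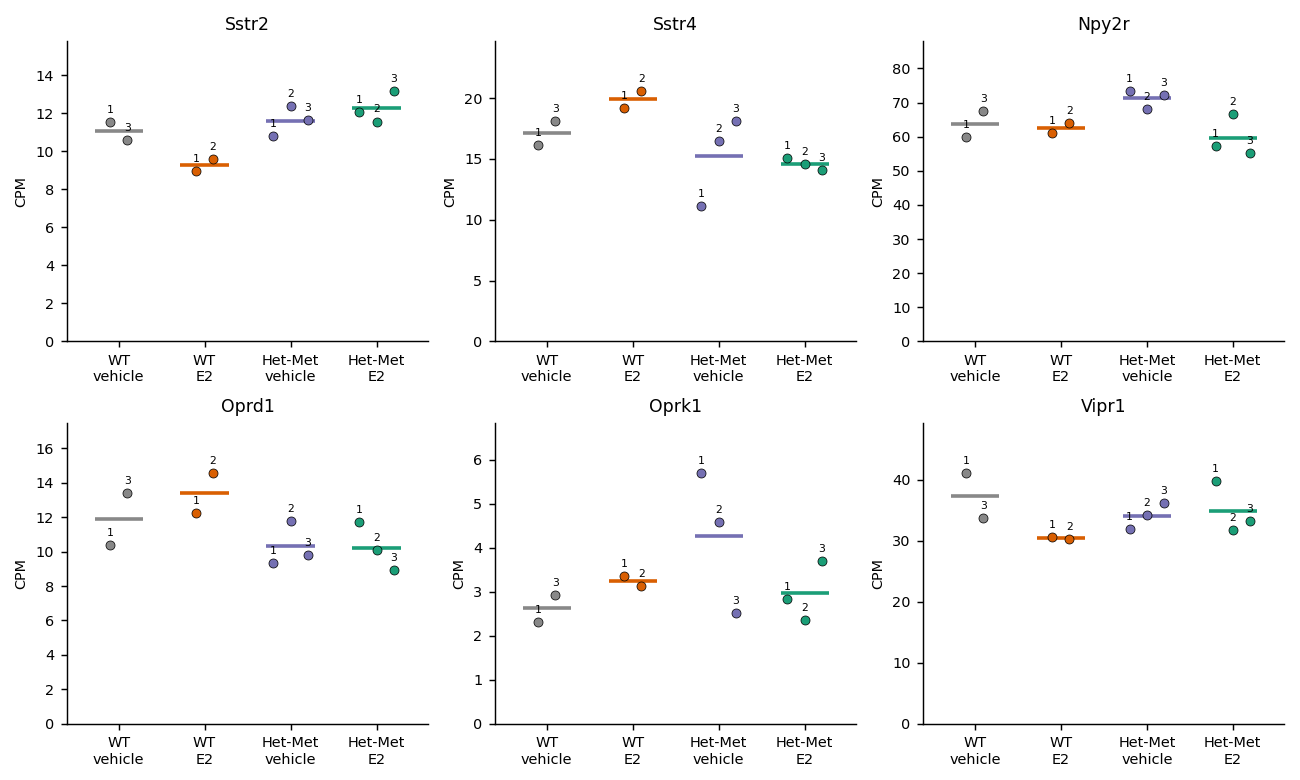
CPM of 6 receptor genes in each library, with the replicate number above each point and the group mean as a bar. Under E2 the WT and Het-Met libraries of Sstr2, Sstr4 and Oprd1 do not overlap, Npy2r is lower under E2 in all 3 Het-Met libraries, and the 3 vehicle-treated Het-Met libraries of Oprk1 spread from 2.50 to 5.69 CPM.

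Averaged over the treatments, Het-Met minus WT gave 0 called members (0.0265% of all genes were called) and 5 with an unadjusted p under 0.05 (12.2%, beside 16.6% of all genes), and the members' median was 0.03, beside 0.02. The differences were 0.14 for Cck, 0.28 for Penk and 0.23 for Sstr2, and -0.31 for Sstr4 and -0.29 for Oprd1, with limma adjusted p from 0.189 to 0.286. The value of Penk was 0.16 without E2-treated WT replicate 2 and 0.17 without E2-treated Het-Met replicate 3. Cck was 264 and 243 CPM in vehicle-treated WT, 236 and 239 in E2-treated WT, 308, 258 and 268 in vehicle-treated Het-Met and 261, 287 and 248 in E2-treated Het-Met libraries. The 2 vehicle groups overlapped for Cck and the 2 E2 groups did not.

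The interaction asks whether E2 had a different effect in the 2 genotypes. No member was called (0.0729% of all genes were), and 1 of 41 had an unadjusted p under 0.05 (2.44%, beside 5.42% of all genes), Cckbr; the members' median was -0.06, beside 0.01. Cckbr was 28.7 and 21.8 CPM in vehicle-treated WT and 20.1 and 18.5 CPM in E2-treated WT libraries. In Het-Met mice it was 19.8, 19.0 and 15.1 CPM under vehicle and 25.8, 24.0 and 30.4 CPM under E2. The E2-treated libraries were thus below the controls in WT and above them in Het-Met, with no overlap in either genotype, a pattern that held for Cckbr alone among the members and for 2.04% of all genes. The effect of E2 was -0.36 in WT (95% interval -0.69 to -0.03, limma adjusted p = 0.9999) and 0.56 in Het-Met (0.30 to 0.83, adjusted p = 0.597). Their difference was 0.93 (0.50 to 1.35, limma adjusted p = 0.111). Between genotypes, Cckbr differed by -0.47 under vehicle (limma adjusted p = 0.331) and by 0.45 under E2 (limma adjusted p = 0.340). Its ligand Cck, whose values stand above, gave an interaction of 0.03 (95% interval -0.22 to 0.28).

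The size of the Cckbr result changed with a choroid plexus covariate and with the libraries included, and its call depended on the test. The 3 libraries with the least choroid plexus signal, vehicle-treated WT replicate 1 and E2-treated Het-Met replicates 3 and 2, ranked 2, 1 and 4 of 10 for Cckbr. The library ranked 3, E2-treated Het-Met replicate 1, had 1532 CPM of choroid plexus markers, more than vehicle-treated Het-Met replicate 2, at 1450 CPM, which ranked 8. All 10 choroid plexus genes had an interaction in the opposite direction, with a median of -3.07. A fit with their level as a covariate therefore cannot tell their part from an effect of E2 that differs by genotype. With the choroid plexus level as a covariate the Cckbr interaction was 0.54 (limma adjusted p = 1.00) and the effect of E2 -0.13 in WT and 0.41 in Het-Met. All 8 thalamus markers had a positive interaction, with a median of 0.29. The 3 E2-treated Het-Met libraries had 104, 121 and 136 CPM of their sum, against 86.5 to 110 CPM in the other 7. Vehicle-treated Het-Met replicate 3, which ranked 10 of 10 for Cckbr, also had 104 CPM. The part of thalamic tissue in the Cckbr values was not tested. DESeq2 on the recovered reads called Cckbr for E2 in Het-Met (0.58, adjusted p = 0.0363) and for the interaction (0.96, adjusted p = 0.00436). Leaving out a vehicle-treated WT library leaves 1 in that group, so only sizes are given. The Cckbr interaction in limma was 1.12 without replicate 3 and 0.73 without replicate 1. The effect of E2 in WT was -0.56 and -0.17 in these 2 fits. The genotype difference under vehicle was -0.28 without vehicle-treated WT replicate 1. The effect of E2 in Het-Met was 0.45 without vehicle-treated Het-Met replicate 3. The genotype difference under E2 was 0.36 without E2-treated Het-Met replicate 3.

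**Figure D4:**
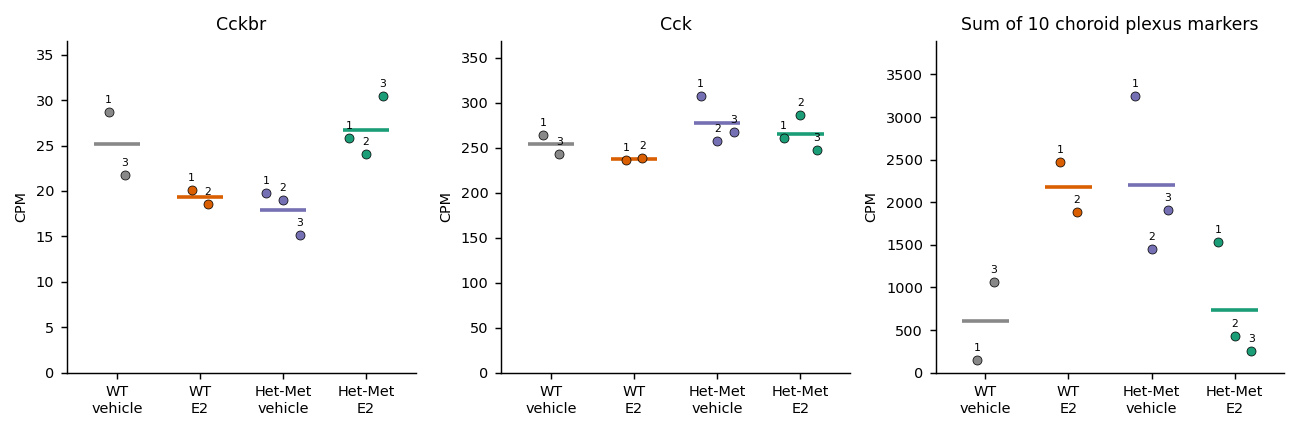
CPM of Cckbr, of its ligand Cck and of the sum of 10 choroid plexus markers in each library, with the replicate number above each point and the group mean as a bar. Cckbr is lower under E2 in WT and higher under E2 in Het-Met mice, the choroid plexus sum has the higher group mean in the 2 groups in which Cckbr is lower, though by library these groups overlap with the others (1450 against 1532 CPM), and Cck spans only 236 to 308 CPM.

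The 250 bases upstream of the RefSeq start of Cckbr, chr7:105425481-105425730 on the plus strand of GRCm38.p6, are shown because Cckbr had the smallest p of the members for the interaction. None of the 3 motifs searched is spelled in this window, printed 5′ to 3′ without capitals for that reason.
Cckbr: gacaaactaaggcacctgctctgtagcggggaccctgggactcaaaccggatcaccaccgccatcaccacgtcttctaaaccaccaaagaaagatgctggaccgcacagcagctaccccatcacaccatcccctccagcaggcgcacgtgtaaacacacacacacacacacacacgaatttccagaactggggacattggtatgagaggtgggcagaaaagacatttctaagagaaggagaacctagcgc

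With a fold change above 1.3 required beside the unadjusted p, the members that passed were 1 for E2 in WT (2.58% of all genes), 1 for E2 in Het-Met (1.95%), 4 for genotype under vehicle (3.29%), 3 for genotype under E2 (4.62%) and 1 for the interaction (3.96%). None passed for E2 over both genotypes (0.782%) or for genotype over both treatments (1.94%).

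The hypothalamic peptides were at or near the limit of detection. Oxt, encoding oxytocin, had 1 and 0 reads in vehicle-treated WT, 1 and 0 in E2-treated WT, 3, 2 and 7 in vehicle-treated Het-Met and 2, 2 and 6 in E2-treated Het-Met libraries. Hcrt, encoding the orexins, had 2 and 5, 0 and 5, 4, 0 and 2, and 4, 3 and 4 reads in the same order, and Pmch, encoding melanin-concentrating hormone, 1 and 0, 7 and 3, 1, 1 and 2, and 0, 6 and 1. Most of these lie at or under the 3 reads that a count of 0 allows. Gal (0.285 to 0.876 CPM) and the vasopressin receptor Avpr1a (0.151 to 0.489 CPM) also fell under the filter, and none of these 5 was tested. Vasopressin (Avp) had 4 and 5 reads in vehicle-treated WT, 20 and 16 in E2-treated WT, 6, 10 and 107 in vehicle-treated Het-Met and 10, 7 and 16 in E2-treated Het-Met libraries. The 107 reads, 4.96 CPM in Het-Met replicate 3, exceeded all the other libraries, which spanned 0.185 to 0.897 CPM. For E2 in WT mice, where the groups did not overlap, the log2 difference of Avp was 0.85 (95% interval -0.46 to 2.15, limma adjusted p = 0.9999), and between genotypes under vehicle it was 1.18 (-0.01 to 2.38, adjusted p = 0.470).

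That library, vehicle-treated Het-Met replicate 3, also had the most Oxt, 7 reads, and the lowest Sst, at 246 CPM. Its sum of 10 interneuron markers was 768 CPM, against 837 to 971 in the other libraries, and its dentate granule cell sum was 308 CPM, against 178 to 226. The 12 hypothalamus markers summed to 6.17 CPM there, inside the range of 4.64 to 14.3 CPM over all libraries, and only 3 of the 12 had a mean of at least 0.5 CPM. Of the other 9, Nkx2-1 reached 0.987 CPM, Gnrh1 0.712, Kiss1 0.314, Fezf1 0.285, Ghrh 0.248 and Otp 0.224 CPM in their highest library, and Sim1, Six6 and Nr5a1 stayed under 0.1 CPM. The highest hypothalamus sums, 14.3 and 12.4 CPM, came with Pomc at 11.3 and 9.22 CPM in the libraries vehicle-treated WT replicate 3 and E2-treated Het-Met replicate 2, where the pituitary sum was 86.7 and 201 CPM, while E2-treated WT replicate 1, with a pituitary sum of 119 CPM, had Pomc at 1.84 CPM and a hypothalamus sum of 6.82 CPM. Whether tissue from beside the hippocampus gave the Avp reads was not tested.

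Other peptides also had single high libraries. Trh, the thyrotropin-releasing hormone precursor, was 0.879 and 1.64 CPM in vehicle-treated WT, 2.83 and 0.516 in E2-treated WT, 0.854, 1.66 and 1.16 in vehicle-treated Het-Met and 1.42, 1.43 and 3.65 in E2-treated Het-Met libraries. Cartpt, the precursor of the CART peptides, was 1.80 and 1.09, 4.26 and 1.25, 1.61, 2.27 and 0.974, and 1.61, 2.26 and 3.70 CPM in the same order. For both genes the 2 highest libraries were E2-treated WT replicate 1 and E2-treated Het-Met replicate 3, and for Penk these 2 were the highest as well, at 46.8 and 56.5 CPM. The other values of Penk in E2-treated Het-Met libraries were 33.2 and 38.1 CPM. The urocortin gene Ucn3, no member and chosen after its values were seen, had 37 and 21 reads in these 2 libraries, 4 reads in vehicle-treated Het-Met replicate 2 and 0 in the other 7. The same 2 libraries had the largest sums of 9 striatum and amygdala markers, 167 and 153 CPM, against 135 to 146 CPM in the other 8. Below these 2 libraries the orders differed. Vehicle-treated Het-Met replicate 2 ranked 3 for Cartpt and Trh and 9 for the marker sum. Vehicle-treated Het-Met replicate 3 and E2-treated Het-Met replicate 2 ranked 3 and 4 for Penk and 8 and 10 for the sum. For E2 in WT, 5 of the 8 markers tested were fitted higher and 3 lower. The part of such tissue in the values of Penk, Cartpt and Trh was not tested. The effect of E2 on Cartpt was 0.59 (95% interval -0.30 to 1.48) in WT and 0.50 (-0.22 to 1.23) in Het-Met mice, and that on Trh 0.10 (-0.90 to 1.10) and 0.55 (-0.26 to 1.37), all within the spread of the libraries.

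**Figure D5:**
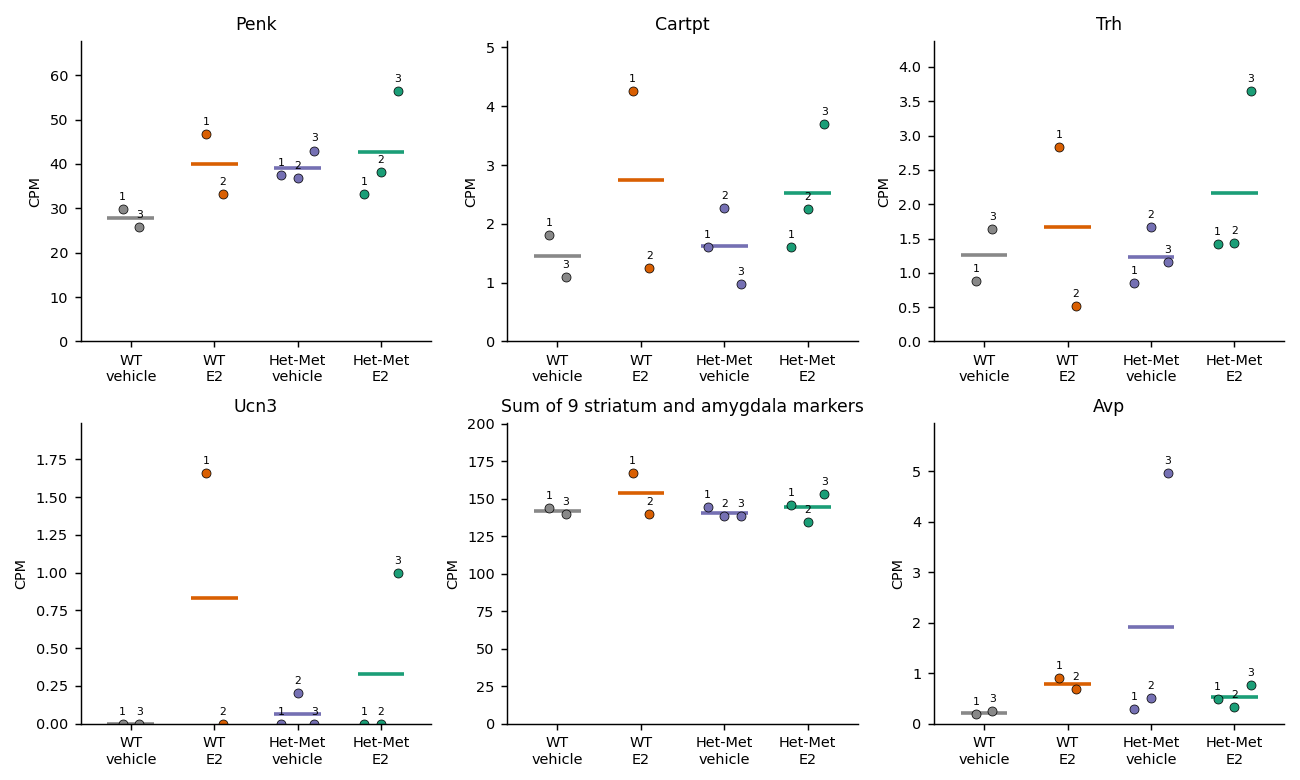
CPM of Penk, Cartpt, Trh, Ucn3 and Avp and of the sum of 9 striatum and amygdala markers in each library, with the replicate number above each point and the group mean as a bar. E2-treated WT replicate 1 and E2-treated Het-Met replicate 3 are the 2 highest libraries for Penk, Cartpt, Trh, Ucn3 and the marker sum, whereas Avp is highest in vehicle-treated Het-Met replicate 3, at 4.96 CPM.

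Over all 41 members, E2-treated Het-Met replicate 3 held the highest value for 14 (34.1%, beside 14.1% of all genes) and vehicle-treated Het-Met replicate 1 for 10 (24.4%, beside 21.4%), and vehicle-treated Het-Met replicate 3 held the lowest for 8 (19.5%, beside 10.9%). The members differed widely in their spread. The highest library was 1.13 times the lowest for Sstr3 and at most 1.27 times for Adcyap1r1, Scg2, Npy1r, Chgb, Oprl1, Chga and Npy. It was 4.38 times the lowest for Cartpt, 7.08 times for Trh and 26.8 times for Avp. The remaining members lay between these, up to 3.49 times for Galr1.

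The genes that make, store and degrade peptides, and the peptides and receptors outside the 46, were listed by name. Of 15 processing and dense-core vesicle genes, all tested, none was called in any comparison, and between 0 and 3 had an unadjusted p under 0.05. The 3 were reached between genotypes (20%), under vehicle and under E2 beside 10.7% and 11.7% of all genes and over both treatments beside 16.6%. Vgf, a granin-like secretory protein induced by BDNF, was 212 and 197 CPM in vehicle-treated WT, 203 and 213 in E2-treated WT, 159, 172 and 154 in vehicle-treated Het-Met and 193, 169 and 162 in E2-treated Het-Met libraries. All 6 Het-Met libraries were below all 4 WT libraries, and the difference over both treatments was -0.30 (limma adjusted p = 0.0989). The genes named here were taken in order of p. The share of all genes that separate the genotypes without overlap over both treatments was not counted. Scg5, a chaperone of the proprotein convertase Pcsk2, was 176 to 195 CPM in the 4 WT and 201 to 253 CPM in the 6 Het-Met libraries. These also did not overlap (difference 0.25, limma adjusted p = 0.121). Scg5 lies 4.05 Mb from Bdnf, and whether DNA that came with the Met allele reaches it was not tested. Pcsk1, the convertase that makes the first cuts in many precursors, was 15.4 to 20.2 CPM in WT and 10.5 to 15.5 CPM in Het-Met libraries, with overlap (difference -0.36, adjusted p = 0.146 with limma). Cadps2 and Pcsk5 had unadjusted p under 0.05 for the interaction, with values of -0.43 and 0.37 (limma adjusted p = 0.674 and 0.862).

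Of the 12 peptidases, none was called, and between 1 and 3 had an unadjusted p under 0.05 in each comparison. The 3 were reached between genotypes under vehicle and under E2 (25%, beside 10.7% and 11.7% of all genes), and over both treatments there was 1 (8.33%, beside 16.6%). Lnpep, which degrades oxytocin and vasopressin, was 33.1 to 46.1 CPM in the WT and 19.1 to 35.4 CPM in the Het-Met libraries, a difference of -0.65 over both treatments (limma adjusted p = 0.120), with overlap. Ace, the angiotensin-converting enzyme, which is abundant in choroid plexus, had an interaction of -1.58 (adjusted p = 0.260 with limma). The choroid plexus markers had the same direction, and their part in the Ace values was not tested. Dpp4 had an interaction of 0.81 (limma adjusted p = 0.683), and Thop1 differed by -0.16 for E2 in Het-Met mice (limma adjusted p = 0.871).

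Of 25 further ligand genes 7 were tested, and of 26 further receptor genes 17, and none was called. Rxfp1, the relaxin receptor, was 15.2 and 9.32 CPM in vehicle-treated WT, 9.06 and 9.63 in E2-treated WT, 6.78, 5.20 and 5.47 in vehicle-treated Het-Met and 10.2, 8.21 and 10.4 in E2-treated Het-Met libraries. E2-treated libraries were above all controls in Het-Met mice, as for 5.15% of all genes, and the WT groups overlapped. Rxfp1 gave 0.68 for E2 in Het-Met (limma adjusted p = 0.597), -0.98 for genotype under vehicle (adjusted p = 0.155) and 1.01 for the interaction (adjusted p = 0.224). The neuropeptide S receptor Npsr1 was 0.52 higher under E2 in Het-Met mice and the calcitonin gene-related peptide gene Calca 0.49 higher (limma adjusted p = 0.748 and 0.872). Under E2, Nppc, the C-type natriuretic peptide, and Ntsr2, a neurotensin receptor rich in astrocytes, were 0.43 and 0.17 higher in Het-Met than in WT mice (limma adjusted p = 0.387 and 0.388).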

How the data were processed

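The authors pooled RNA from 2 mice per library, prepared stranded 75-bp single-end libraries, aligned the reads to mm10 with TopHat2 and deposited CPM per gene symbol; the counter's settings are not given in the sources used here. The deposited CPM columns of each library are whole multiples of 1 read (all values within 0.01 read), so reads were recovered. Methods state 3 replicates per group, and the 2 WT groups have 2 libraries each here; replicates of a group differed beyond counting noise (chi-square per degree of freedom 3.40 to 14.1). The methods call the replicates biological, each a pool of 2 animals, and the labels only number them. The p-values therefore measure the spread between these pools and not between single mice. That spread may be technical in part.

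The 15081 of 24421 genes that averaged 0.5 CPM or more were tested on log2(CPM + 0.5) with limma 3.58.1 in R 4.3.3, with 4 group means over all 10 libraries, empirical Bayes with a trend, and Benjamini-Hochberg adjustment; 95% intervals are from the same fit. The code was tested on simulated data first. Exon lengths and positions are from GENCODE for GRCm38, and upstream sequences from RefSeq (GRCm38.p6). Alternatives were other pseudocounts, filters, scalings and thresholds, a replicate block, a choroid plexus covariate, the compared libraries alone, edgeR 4.0.16 and DESeq2 1.42.0 on the recovered reads, and leaving out each library. The members, the marker and pathway lists and the tests were chosen with earlier results of these data known. Values were printed by library for members with an unadjusted p under 0.05 in any comparison, the 3 highest ligands and receptors per kb, partners where a result needed them, and Oxt, Avp, Hcrt, Pmch and Trh. Cartpt was added after its values were seen, and the other partners are given by range. From each other list at most 5 genes were named, in order of p.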

Additional observations from a re-analysis of the deposited data

Results flagged for a closer look

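The Cckbr result was flagged because the E2-treated libraries lay below all controls in WT and above all controls in Het-Met mice. Among the 41 members tested the pattern held for Cckbr alone, beside 307 of all 15081 genes (2.04%). The pattern by itself therefore does not set the members apart from other genes. The effect of E2 on Cckbr in Het-Met minus that in WT mice was 0.93 on the log2 scale. The difference was tested as an interaction in limma and did not pass the adjusted threshold (adjusted p = 0.111), while 0.0729% of all genes did. Choroid plexus and thalamus markers are given with the result. The choroid plexus covariate itself differed with genotype and E2, so that fit cannot tell its part from the interaction. The part of thalamic tissue was not tested.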

How the results depend on the processing

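With 2 or 3 libraries a group, none of the 41 members passed limma's adjusted threshold in any of the 7 comparisons, and the values with an unadjusted p under 0.05 are therefore descriptions. The alternatives were run for the counts, the medians and the fold changes of the 10 members with an unadjusted p under 0.05, and none of these fold changes turned its direction. On the unadjusted p with the fold limit the members were 1 for E2 in WT, 1 for E2 in Het-Met, 4 for genotype under vehicle, 3 for genotype under E2 and 1 for the interaction. DESeq2 on the recovered reads called 1 for E2 in Het-Met and 1 for the interaction, Cckbr in both. Leaving out 1 library at a time, the Cckbr interaction ran from 0.73 to 1.12, both from fits with 1 vehicle-treated WT library left. The members' median for genotype under E2 ran from -0.039, without E2-treated WT replicate 2, to 0.085, and was -0.037 without E2-treated Het-Met replicate 3. All other shifts of medians were within the spread between libraries (SD 0.075), but with the choroid plexus covariate those for E2 in Het-Met and for genotype under E2 were -0.020 and -0.010, that for E2 in Het-Met was -0.0050 without vehicle-treated and -0.00027 without E2-treated Het-Met replicate 3, and that for the interaction was 0.015 without vehicle-treated Het-Met replicate 1 and 0.0048 without E2-treated WT replicate 1, each with its sign turned. The medians for E2 in WT and for E2 averaged kept their sign, at 0.0073 or more and 0.0051 or more. Of the alternative values for single members, 430 kept their direction and side of the threshold and 3 passed it, all for Cckbr. These were the values of DESeq2 and that of a fit with 1 vehicle-treated WT library left, which is no separate call. The comparison of only the libraries concerned could not be run for the interaction and the 2 averages.

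The replicate numbers gave no sign of pairing: of 12 same-number pairs, 0 had a correlation of deviations over 0.1 (range -0.17 to 0.083). The deviations were from group means, so those of the 2 libraries in a WT group mirror each other. The 12 values are thus not separate checks, and a weak pairing could be missed. With the replicate block, 0 members were called in each comparison, and the Cckbr interaction was 0.95 (adjusted p = 0.129). Over all genes the block called 10 for E2 in WT and 18 for the interaction, beside 2 and 11, and 2 for genotype under E2, beside 4.

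Counts over all genes depended on the tool. DESeq2 called 14, 6, 38, 29, 38, 5 and 88 genes for E2 in WT, E2 in Het-Met, genotype under vehicle, genotype under E2, the interaction, E2 averaged and genotype averaged, where limma called 2, 0, 1, 4, 11, 1 and 4. edgeR called 14 for genotype under E2, and limma on only the libraries concerned 51. Leaving out 1 library gave up to 71 for the interaction (without E2-treated Het-Met replicate 1) and 86 for genotype averaged (without vehicle-treated Het-Met replicate 2). The cause was not tested. Low genes such as Galr1, at 0.231 to 0.806 CPM, rest on few reads per library, which limits their precision.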
